A study of Mus musculus with 8 samples.

Results

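The 10 receptor tyrosine kinases that lenvatinib is known to inhibit were followed through 8 bulk RNA-seq libraries of mouse tumour organoids. They were taken by gene symbol (Flt1, Kdr, Flt4, Fgfr1, Fgfr2, Fgfr3, Fgfr4, Pdgfra, Kit and Ret), and all 10 were found among the 45777 genes of the count files. The rule names the known targets of the drug and uses no measured value, but the set was chosen with earlier results of these data known. By their labels the organoids model liver cancer arising with metabolic steatohepatitis, and every library is of wild-type (WT) genotype. The resistant group held 1 library each of the lenvatinib-resistant cultures of lines SNU-6624 and SNU-6625. Their treatment label is control. The lenvatinib group held 1 library each of the same 2 lines treated with lenvatinib, with no dose or duration in the labels used here. The parental group, labelled control, held 1 library each of both of these lines and of SNU-6621 and SNU-6622. Within a group, values are listed by ascending line number. No line had a second library within a group, and the labels do not say whether a resistant culture is a clone or a pool.

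Receptor tyrosine kinases are membrane proteins that dimerise on binding a ligand and phosphorylate each other, which recruits adaptors that start the RAS-ERK and PI3K cascades. The VEGF receptors (Flt1, Kdr and Flt4) are best known from blood and lymphatic endothelium, Pdgfra from fibroblasts and other mesenchymal cells, and Kit from mast cells and blood progenitors. The FGF receptors Fgfr1, Fgfr2 and Fgfr3 occur in many epithelia and mesenchyme. Fgfr4 is the hepatocyte receptor that, with the co-receptor beta-Klotho (Klb), passes the intestinal Fgf15 signal that represses bile acid synthesis. Ret is the receptor of the GDNF family of ligands, with GFR-alpha co-receptors, and is known from the enteric nervous system and the kidney. Lenvatinib occupies the ATP pocket of these kinases.

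The catalytic core beside the ATP pocket is the part these receptors have in common, so its coding sequence is shown for all 10. Each line below gives the 69 bases that run from the codons of the catalytic-loop motif HRD to those of the DFG motif, whose aspartate binds magnesium. They were read from the longest coding transcript of each gene in GENCODE M21 (mm10), and the capitals mark the codon of the catalytic aspartate and the 3 codons of DFG.
Flt1: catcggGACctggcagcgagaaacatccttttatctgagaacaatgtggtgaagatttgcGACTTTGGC
Kdr: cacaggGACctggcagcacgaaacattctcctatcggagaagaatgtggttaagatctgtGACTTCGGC
Flt4: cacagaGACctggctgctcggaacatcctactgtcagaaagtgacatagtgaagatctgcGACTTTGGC
Fgfr1: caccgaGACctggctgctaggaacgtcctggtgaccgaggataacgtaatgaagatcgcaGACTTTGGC
Fgfr2: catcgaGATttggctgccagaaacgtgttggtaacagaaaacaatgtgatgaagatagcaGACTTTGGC
Fgfr3: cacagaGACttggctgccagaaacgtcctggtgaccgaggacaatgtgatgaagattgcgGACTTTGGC
Fgfr4: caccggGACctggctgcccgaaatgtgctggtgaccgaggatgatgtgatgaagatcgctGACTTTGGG
Pdgfra: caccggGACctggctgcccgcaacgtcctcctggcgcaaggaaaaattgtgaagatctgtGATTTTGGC
Kit: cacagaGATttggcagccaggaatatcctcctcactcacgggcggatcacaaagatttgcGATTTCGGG
Ret: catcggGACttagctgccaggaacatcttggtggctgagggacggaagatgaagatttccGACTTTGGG
The stretch had the same length of 69 bases in all 10 genes. Pairs from the same receptor family were identical at 63.8% to 87.0% of these bases (10 pairs, median 79.8%), and pairs from different families at 55.1% to 76.8% (35 pairs, median 68.1%). Fgfr1 and Fgfr3 were the closest pair, with 60 of 69 bases alike. No pair of the 45 shared a run of 50 bases anywhere in the coding sequence, and the longest run shared within a family was 26 bases. An exact read of 50 or more bases from a coding part thus matches only 1 of the 10.

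Most of these receptors had few or no transcripts in the organoids. A count of 3 in 1 library was taken as the floor, which is 0.0492 to 0.0612 CPM (the count scaled by the library total) at totals of 49011663 to 61032387 counts. Over the 80 combinations of receptor and library, 47 lay above the floor and 29 had a count of 0. Flt4, Fgfr3 and Ret were above the floor in all 8 libraries, and Kdr and Kit had 0 counts in all 8. In bulk libraries, fewer cells with a transcript and less transcript per cell cannot be told apart. Markers of the labelled cell type were mixed. All 8 epithelial and biliary markers were present, and their summed level was 19310 and 20960 CPM in the resistant libraries, 5236 and 5713 CPM in the lenvatinib libraries and 11550 to 14210 CPM in the parental ones. Of 10 hepatocyte markers, Alb, Serpina1a and Cyp3a11 had 0 counts in every library, and the summed level was 117 and 171 CPM, 13.9 and 27.0 CPM, and 116 to 187 CPM in the same order of groups. Hnf4a and Ass1 made up most of that sum in every library. Fah reached 23.2 CPM in SNU-6621, and Ttr, Apoa1, Tat and Tdo2 had at most 1.45 CPM in any library.

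**Figure D1:**
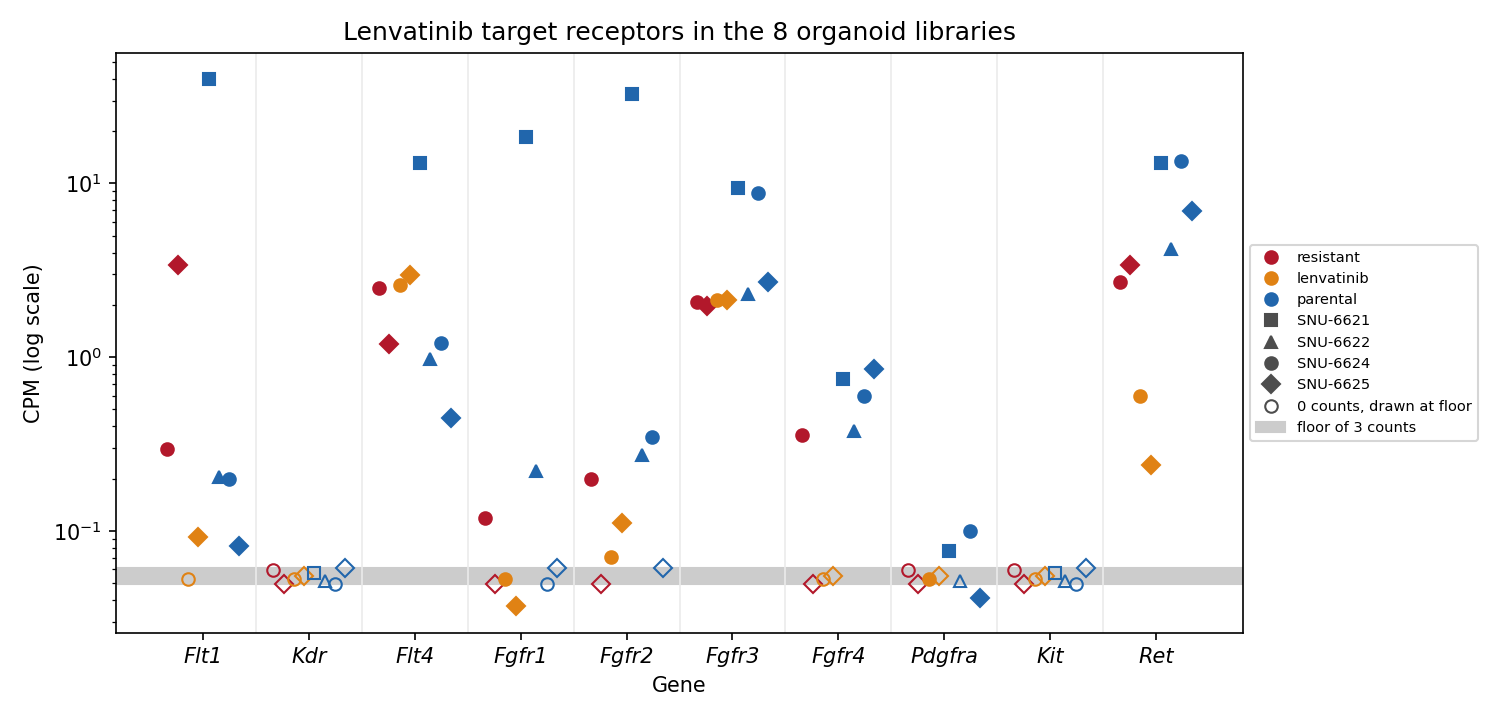
Level of each receptor gene in CPM (log scale) in the 8 libraries, with colour for the group and symbol shape for the line. Open symbols are counts of 0, drawn at the floor of 3 counts (grey band), where Kdr and Kit lie in all 8 libraries, while Flt1, Flt4, Fgfr1 and Fgfr2 have 1 parental point, SNU-6621, far above the rest.

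Kdr (NCBI Gene 16542, chromosome 5, 75932827 to 75979072, mm10, minus strand), the main VEGF receptor of endothelium, was not detected. Its 0 counts in the 8 libraries together allow a level of up to 0.00678 CPM, counting error alone considered. Flt1 (NCBI Gene 14254, chromosome 5, 147561604 to 147726438, minus strand), a VEGF receptor also made as a soluble decoy, was detected unevenly. It had 15 and 206 counts (0.297 and 3.38 CPM) in resistant SNU-6624 and SNU-6625. In the lenvatinib libraries of the same lines it had 0 and 5 counts (0 and 0.0919 CPM). In the 4 parental libraries it had 2081, 12, 12 and 4 counts (39.8, 0.205, 0.199 and 0.0816 CPM). A single parental line and a single resistant culture thus held nearly all Flt1 counts, and the counts do not separate its membrane and soluble forms.

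Flt4 (NCBI Gene 14257, chromosome 11, 49609679 to 49652739, plus strand), the receptor of the lymphatic growth factors VEGF-C and VEGF-D, was above the floor everywhere. It had 126 and 73 counts (2.49 and 1.20 CPM) in the resistant libraries, and 147 and 162 counts (2.60 and 2.98 CPM) in the lenvatinib libraries. The 4 parental libraries had 690, 57, 73 and 22 counts (13.2, 0.974, 1.21 and 0.449 CPM). Within each of lines SNU-6624 and SNU-6625 the parental library was the lowest of the 3, and SNU-6621 was above every other library. In SNU-6624 the resistant and lenvatinib libraries did not differ beyond counting error, with a ratio of 0.959 (95% interval 0.750 to 1.23).

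Among the FGF receptors, Fgfr3 had the steadiest presence. Fgfr3 (NCBI Gene 14184, chromosome 5, 33721724 to 33737068, plus strand), a receptor that restrains cartilage growth and is expressed in several epithelia, had 105 and 120 counts (2.08 and 1.97 CPM) in resistant SNU-6624 and SNU-6625. It had 121 and 116 counts (2.14 and 2.13 CPM) in the lenvatinib libraries, and 494, 135, 535 and 133 counts (9.44, 2.31, 8.86 and 2.71 CPM) in the 4 parental libraries. The 4 resistant and lenvatinib values lay between 1.97 and 2.14 CPM, below all parental values, while the parental lines fell into a higher pair and a lower pair. The 95% counting intervals of these 4 values overlapped those of the lower pair, as in lenvatinib SNU-6624 (1.775 to 2.556 CPM) and parental SNU-6622 (1.934 to 2.73 CPM). Exons of G630022F23Rik overlap those of Fgfr3 on the other strand in GENCODE M21. Its reads cannot be told apart from those of Fgfr3 here, since the strand setting of the counting is not given in the sources used here.

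Fgfr1 (NCBI Gene 14182, chromosome 8, 25518759 to 25575718, plus strand) and Fgfr2 (NCBI Gene 14183, chromosome 7, 130162451 to 130266808, minus strand), the FGF receptors of mesenchyme and of epithelium in many organs, were high in SNU-6621 alone. Fgfr1 had 6 and 0 counts in the resistant libraries, 3 and 2 in the lenvatinib libraries, and 965, 13, 0 and 0 in the 4 parental libraries. Fgfr2 had 10 and 0 counts in the resistant libraries, 4 and 6 in the lenvatinib libraries, and 1709, 16, 21 and 0 in the 4 parental libraries. Outside SNU-6621, no library exceeded 0.222 CPM of Fgfr1 or 0.348 CPM of Fgfr2. Gm16159, whose exons overlap those of Fgfr1 on the other strand, had 0 counts in all 8 libraries.

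Fgfr4 (NCBI Gene 14186, chromosome 13, 55152818 to 55168759, plus strand), the hepatocyte FGF receptor, was low but present in every parental line. It had 18 and 0 counts (0.356 and 0 CPM) in resistant SNU-6624 and SNU-6625 and 0 counts in both lenvatinib libraries. The 4 parental libraries had 39, 22, 36 and 42 counts (0.746, 0.376, 0.596 and 0.857 CPM). The lowest parental value was above all lenvatinib and resistant values, but the 95% intervals of resistant SNU-6624 (0.211 to 0.563 CPM) and parental SNU-6622 (0.236 to 0.569 CPM) overlapped. The co-receptor gene Klb had 0 counts in every library but lenvatinib SNU-6625, which had 6.

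Kit (NCBI Gene 16590, chromosome 5, 75574987 to 75656722, plus strand), the stem cell factor receptor, had 0 counts in all 8 libraries, with the same limit of 0.00678 CPM as Kdr. Its ligand gene Kitl was present in all of them, at 9877 and 7954 counts in the resistant libraries, 6411 and 6707 counts in the lenvatinib libraries, and 1054, 11551, 11683 and 13458 counts in the 4 parental libraries. Pdgfra (NCBI Gene 18595, chromosome 5, 75151322 to 75198206, plus strand), a receptor of PDGF ligands, had 15 counts in all 8 libraries together and at most 6 in one, parental SNU-6624. Resistant SNU-6624 and SNU-6625 had 0 counts of Pdgfra, the lenvatinib libraries had 3 and 0, and the 4 parental libraries had 4, 0, 6 and 2. Exons of Gm42802 and Gm42803 overlap those of Pdgfra on the other strand. As for Fgfr3, reads of the overlapping genes cannot be told apart from those of Pdgfra here.

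Ret (NCBI Gene 19713, chromosome 6, 118151748 to 118197744, minus strand) was above the floor in all 8 libraries, at levels ordered by group. It had 136 and 206 counts (2.69 and 3.38 CPM) in the resistant libraries, and 34 and 13 counts (0.601 and 0.239 CPM) in the lenvatinib libraries. The 4 parental libraries had 683, 247, 809 and 342 counts (13.1, 4.22, 13.4 and 6.98 CPM). The 3 groups did not overlap: both lenvatinib libraries were lowest, both resistant libraries lay between, and the 4 parental lines were highest. The share of all genes whose groups separate in this way, or as for Fgfr3 and Fgfr4, is not given here. The GDNF co-receptor gene Gfra1 and the ligand gene Gdnf had 0 counts in all 8 libraries. Gfra4, the co-receptor for persephin, had 231 and 104 counts in the resistant libraries, 317 and 301 in the lenvatinib libraries, and 722, 155, 882 and 487 in the 4 parental libraries.

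Parental SNU-6621 differed from the other parental lines in 4 of the 10 receptors. Flt1 at 39.8 CPM was 194 times the next parental line, Fgfr2 at 32.7 CPM was 94.0 times, Fgfr1 at 18.5 CPM was 83.1 times and Flt4 at 13.2 CPM was 10.9 times. Ret and Fgfr3 in SNU-6621 were 0.975 and 1.07 times the highest other parental line, SNU-6624. With each line compared with the highest of the other 3 (values under the floor set to it) and a 10-fold limit, a rule chosen after the values were seen, 1.71% of the 11790 genes with at least 5 CPM in 1 or more parental lines passed in SNU-6621. Of the 6 receptors with that level, 4 passed in SNU-6621, and 0 passed in SNU-6622, SNU-6624 or SNU-6625, where 0.399%, 0.0254% and 0.119% of genes passed. SNU-6621 had 1 library, so these differences have no replicate check.

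The marker sums of 3 other cell types were also higher in SNU-6621, and their part in its receptor levels was not tested. The 16 endothelial markers summed to 52.1 CPM in SNU-6621, against 7.62 to 12.7 CPM in the other parental lines, and most of that sum was Pdpn (1702 counts) and Esam (616 counts), which are not confined to endothelium. Of the same list, Cdh5, Emcn, Cldn5, Erg and Stab2 had 0 counts in all 8 libraries, and Pecam1 had 0 in all 4 parental lines. Vwf had 79 counts in SNU-6621 and 20, 19 and 26 in the other parental lines, while Tie1 had 0 against 122, 99 and 87. The 14 fibroblast and stellate cell markers summed to 24.4 CPM in SNU-6621, against 3.43 to 10.6 CPM in the other parental lines, nearly all of it Lrat (1238 counts). Col3a1, Dcn, Lum, Acta2, Thy1 and Postn had 0 counts in all 8 libraries. Leukocyte and mast cell markers summed to 3.94 CPM in SNU-6621 and to at most 0.282 CPM in the other parental lines. Nearly all of the SNU-6621 sum was Cd34 (196 counts, and 0 in the other parental lines), and Ptprc and Cpa3 were at 0 in all 8 libraries. Neural, glial and neuroendocrine markers were 0.918 CPM in SNU-6621 and 0.712 to 0.857 CPM in the others.

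The promoters of 3 of the receptors that were high together in SNU-6621 are shown because these genes share that pattern. Fgfr1 had no entry. They are 300 bases from RefSeq (GRCm38.p6, the assembly of mm10), 250 before and 50 after the annotated start, and 8 of the 10 receptors matched an entry. Capitals mark matches, on either strand, to GGGCGG (SP1), TGANTCA (AP-1), TGACGTCA (CRE), CACGTG (E-box) or CCGGAAG (ETS).
Flt1, chr5:147725962-147726261, minus strand: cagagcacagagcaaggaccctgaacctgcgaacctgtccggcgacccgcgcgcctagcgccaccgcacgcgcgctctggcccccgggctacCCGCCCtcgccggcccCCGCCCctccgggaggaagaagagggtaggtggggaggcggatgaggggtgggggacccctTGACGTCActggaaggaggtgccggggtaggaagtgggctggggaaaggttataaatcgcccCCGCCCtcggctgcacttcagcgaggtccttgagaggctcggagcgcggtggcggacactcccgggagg
Flt4, chr11:49609429-49609728, plus strand: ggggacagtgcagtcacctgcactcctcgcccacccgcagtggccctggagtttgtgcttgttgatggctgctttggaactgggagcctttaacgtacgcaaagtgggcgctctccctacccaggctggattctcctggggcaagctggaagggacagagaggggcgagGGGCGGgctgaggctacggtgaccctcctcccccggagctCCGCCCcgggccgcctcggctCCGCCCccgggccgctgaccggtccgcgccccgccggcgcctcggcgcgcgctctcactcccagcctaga
Fgfr2, chr7:130266759-130267058, minus strand: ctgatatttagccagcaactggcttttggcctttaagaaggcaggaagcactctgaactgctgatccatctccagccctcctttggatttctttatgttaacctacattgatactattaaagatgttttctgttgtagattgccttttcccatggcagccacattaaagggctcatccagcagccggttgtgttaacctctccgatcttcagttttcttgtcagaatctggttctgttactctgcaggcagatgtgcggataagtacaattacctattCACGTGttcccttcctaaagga
The Flt1 window held 3 matches to GGGCGG and 1 to TGACGTCA, the Flt4 window 3 to GGGCGG, and the Fgfr2 window 1 to CACGTG. Of the 32851 windows of this length in the table, 35.7% held GGGCGG, 7.81% TGANTCA, 1.79% TGACGTCA, 7.15% CACGTG and 8.86% CCGGAAG. Their share of G and C bases was 70.7% for Flt1, 70.3% for Flt4 and 43.7% for Fgfr2, against a median of 52.7%. The 3 windows thus shared no single motif of these 5. Fgfr3, with 4 matches to GGGCGG in 1 of its 2 windows, was not set apart in SNU-6621.

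The first comparison asks how the transcripts of the drug's own targets differed in organoids treated with lenvatinib. Ret fell. It averaged 0.420 ± 0.256 CPM in the lenvatinib libraries and 10.2 ± 4.54 CPM in the parental libraries of the same lines (SD, n = 2 lines each), and the fitted log2 difference was -4.69 (SE 0.63, edgeR quasi-likelihood test, adjusted p = 0.0415). Ret was 22.3-fold lower with lenvatinib in SNU-6624 and 29.2-fold lower in SNU-6625. In the same libraries the epithelial marker sum (5236 and 5713 CPM, against 11570 and 12760 CPM in parental) and the hepatocyte marker sum (13.9 and 27.0 CPM, against 116 and 171 CPM) were also lower, and the neural marker sum was higher (4.16 and 6.47 CPM, against 0.712 and 0.857 CPM). The epithelial markers did not all move together: Krt8, Krt18, Krt19, Krt7, Prom1 and Epcam were lower in both lines. Cdh1 (977 and 730.8 CPM, against 606.5 and 651.6 CPM) and Sox9 (55.3 and 63.0 CPM, against 32.4 and 45.8 CPM) were higher. Most of the hepatocyte difference lay in Hnf4a (5.59 and 10.9 CPM, against 91.0 and 149 CPM), and most of the neural one in Tubb3. The part of these markers in the Ret level was not tested. Ret was the only receptor of the 10 that was called (adjusted p under 0.05), and 6 of the 10 passed the filter on low counts. Over all 17038 genes tested, 5.78% were called, 1.7% up and 4.08% down. The call of Ret was lost without any one of the 4 lenvatinib and parental libraries, with an adjusted p of 0.171 to 0.273, where no gene at all was called, and with no filter on low counts (adjusted p = 0.0572). The log2 fold change stayed between -5.38 and -4.23 in these and the 9 alternatives that kept the call.

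The other 5 tested receptors were not called. For Flt4 the log2 fold change was 1.83 (SE 0.54, edgeR adjusted p = 0.107). Its lenvatinib level was 2.15 times the parental level in SNU-6624 (95% counting interval 1.61 to 2.89) and 6.64 times in SNU-6625 (4.24 to 10.9). Fgfr3 had -1.38 (SE 0.58, edgeR adjusted p = 0.190), and that value rested mostly on SNU-6624: the ratio of lenvatinib to parental was 0.242 (0.197 to 0.295) in SNU-6624 and 0.786 (0.607 to 1.02) in SNU-6625. Fgfr4, at 0 counts in both lenvatinib libraries, was at least 11.2-fold lower than parental in SNU-6624 and at least 15.5-fold lower in SNU-6625, against the floor of 3 counts per library (edgeR adjusted p = 0.142, unadjusted 0.0406). DESeq2 called Fgfr4 (adjusted p = 0.0267) as well as Ret, and 21.5% of all genes. Ret, Flt4 and Fgfr4 had an unadjusted p under 0.05, as did 31.8% of all genes. In the 4 lenvatinib and parental libraries alone, where 7942 genes were called, edgeR called Flt4 (1.76, adjusted p = 0.0269), Fgfr3 (-1.32, 0.0499) and Fgfr4 (0.00564) besides Ret. Without resistant SNU-6624 or SNU-6625 it called Flt4 (adjusted p = 0.0286 and 0.0264) and Fgfr4 (0.00932 and 0.00833). Flt1 had 0 against 12 counts in SNU-6624, a ratio with an upper 95% limit of 0.384, and 5 against 4 counts in SNU-6625, a ratio of 1.13 (0.242 to 5.68). Its fit gave -2.59 (SE 1.77, edgeR adjusted p = 0.368). The ratio of lenvatinib to parental Fgfr2 was 0.203 (0.0508 to 0.603) in SNU-6624, and SNU-6625 had 6 against 0 counts, with 0.30 for both lines together (SE 1.80, edgeR adjusted p = 0.923). Fgfr1, Pdgfra, Kdr and Kit did not pass the filter.

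**Figure D2:**
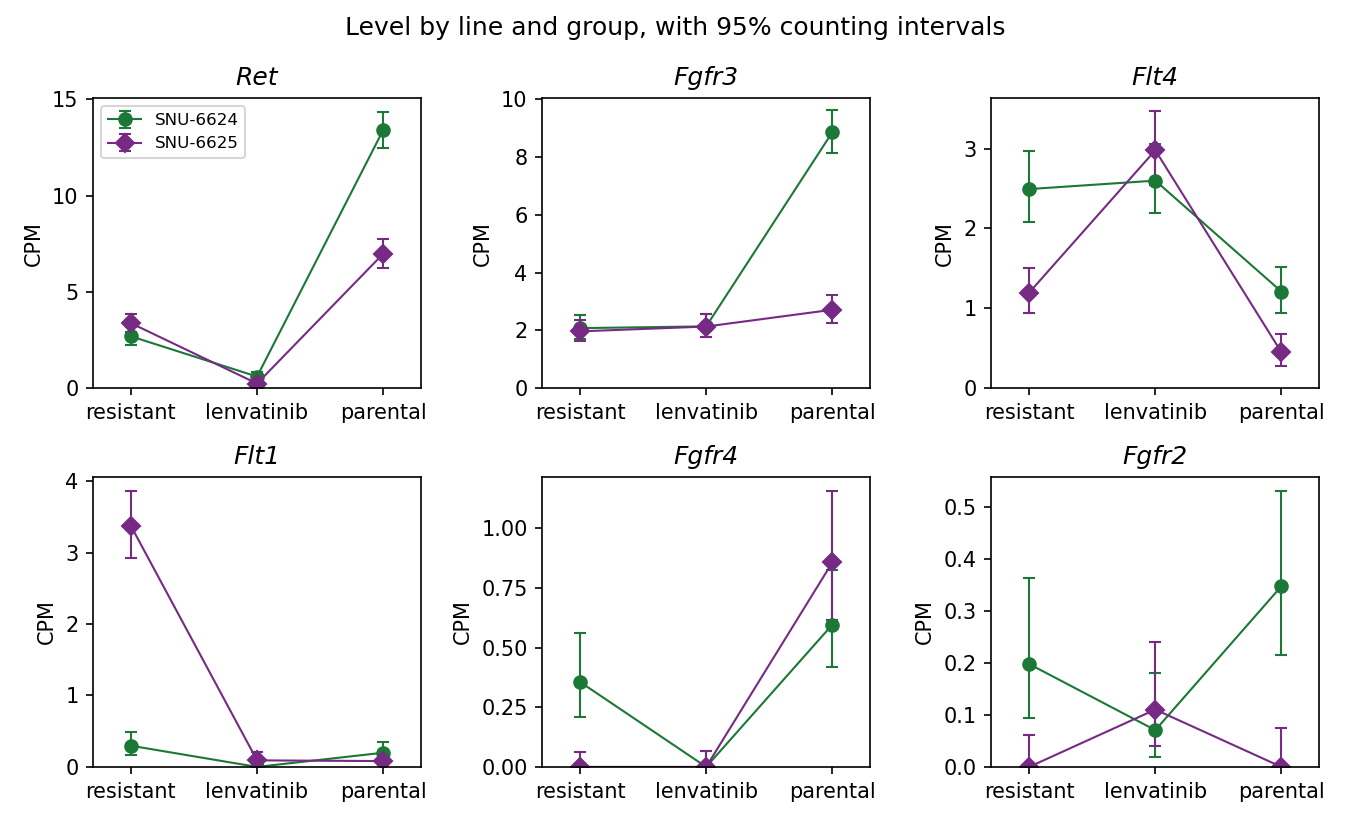
Level in CPM of the 6 receptors that passed the filter, in resistant, lenvatinib and parental libraries of SNU-6624 (circles) and SNU-6625 (diamonds), with lines joining the libraries of a line. Bars are exact 95% Poisson intervals of the count; Ret is lowest in both lenvatinib libraries, and Flt1 is high in resistant SNU-6625 alone.

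The next comparison asks how the receptors differed in the resistant cultures. No receptor was called against parental by edgeR, which called 0% of the 17038 genes. Ret and 2715 genes in all (15.9%) had an unadjusted p under 0.05. DESeq2 called 6.48% of all genes, none of them a receptor. Ret averaged 3.03 ± 0.484 CPM in resistant and 10.2 ± 4.54 CPM in parental libraries of the same lines (SD, n = 2 each), and the fitted log2 difference was -1.51 (SE 0.56, adjusted p = 0.308 by edgeR). The ratio of resistant to parental Ret was 0.201 (95% counting interval 0.166 to 0.241) in SNU-6624 and 0.484 (0.405 to 0.577) in SNU-6625. Fgfr3 had a log2 fold change of -1.27 (SE 0.59) and Flt4 one of 1.26 (SE 0.52), with edgeR adjusted p of 0.361 and 0.334. The Fgfr3 value rested mostly on SNU-6624, with a ratio of resistant to parental of 0.234 (0.188 to 0.290), against 0.725 (0.561 to 0.934) in SNU-6625, and it ran from -2.07 to -0.32 with 1 library left out. With resistant SNU-6625 left out, Ret had -2.41 (edgeR adjusted p = 0.0293), and with resistant SNU-6624 left out -0.78 (adjusted p = 0.0877). Such fits have 1 resistant library, which is assumed to vary like the other groups, so their p-values do not measure spread among resistant cultures.

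Flt1 set the 2 resistant cultures apart. Resistant SNU-6625 had 206 counts of Flt1 (3.38 CPM, 95% interval 2.93 to 3.87) against 4 in its parental library, a ratio of 41.4 (95% counting interval 15.9 to 153). Resistant SNU-6624 had 15 counts against 12 in its parental library, a ratio of 1.49 (0.653 to 3.50). Over both lines the log2 fold change of 2.72 (SE 1.59) was not called (edgeR adjusted p = 0.435). It was 4.66 without resistant SNU-6624 (adjusted p = 0.0348 by edgeR, in a fit that called 5819 genes), 1.14 without resistant SNU-6625 (adjusted p = 0.732) and 0.46 without parental SNU-6625, with the same assumption on the lone library. Fgfr4 also differed between the cultures, with 18 counts in the resistant SNU-6624 library and 0 in that of SNU-6625. There the ratio of resistant to parental Fgfr4 had an upper 95% limit of 0.0737. Its fitted value of -2.76 (log2 scale; SE 1.85, adjusted p = 0.492 by edgeR) was -8.58 without resistant SNU-6624 (adjusted p = 0.0326), where the lone resistant library has 0 counts and the value depends on the prior count, and -0.77 without resistant SNU-6625 (adjusted p = 0.693). The difference between the 2 cultures was not tested, since each had 1 library. In resistant SNU-6624 and SNU-6625 the endothelial markers summed to 8.39 and 5.59 CPM, against 11.9 and 12.7 CPM in their parental libraries. The lower sum in SNU-6625 lay in Egfl7 (2.75 CPM in resistant, 9.55 CPM in parental) and Tie1 (0.279 and 1.78 CPM). Other markers were higher there: Esam had 73 counts in the resistant library and 25 in the parental one, Pdpn 16 and 0, and Pecam1 and Lyve1 9 and 0 each. Cdh5, Emcn, Cldn5, Erg and Stab2 were at 0, and the part of these markers in the Flt1 level was not tested.

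Resistant and lenvatinib-treated libraries differed in the drug label as well as in resistance, and these cannot be told apart. Ret in the resistant library was 4.48 times the lenvatinib level in SNU-6624 (95% counting interval 3.06 to 6.73) and 14.1 times in SNU-6625 (8.08 to 27.0). Its log2 fold change of 3.18 (SE 0.61) just missed the threshold (edgeR adjusted p = 0.0568). DESeq2 called it, with 3.21 (adjusted p = 1.75e-05), and so did edgeR with genes of at least 1 CPM in 2 or more libraries (adjusted p = 0.0461), or without resistant SNU-6624 (0.000804) or SNU-6625 (0.00461), with 1 resistant library left. None of the 6 tested receptors was called, against 6.23% of all 17038 genes (4.14% up). Ret and Flt1 had an unadjusted p under 0.05, as did 30.4% of all genes, and DESeq2 called both, with 20.9% of all genes. For Flt1 the log2 fold change was 5.31 (SE 1.63, edgeR adjusted p = 0.116), with 15 and 206 counts in resistant and 0 and 5 in lenvatinib libraries. Fgfr3 had 0.11 (SE 0.57), a direction that turned to -0.09 with library size as the only scaling, and Flt4 had -0.57 (SE 0.51).

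**Figure D3:**
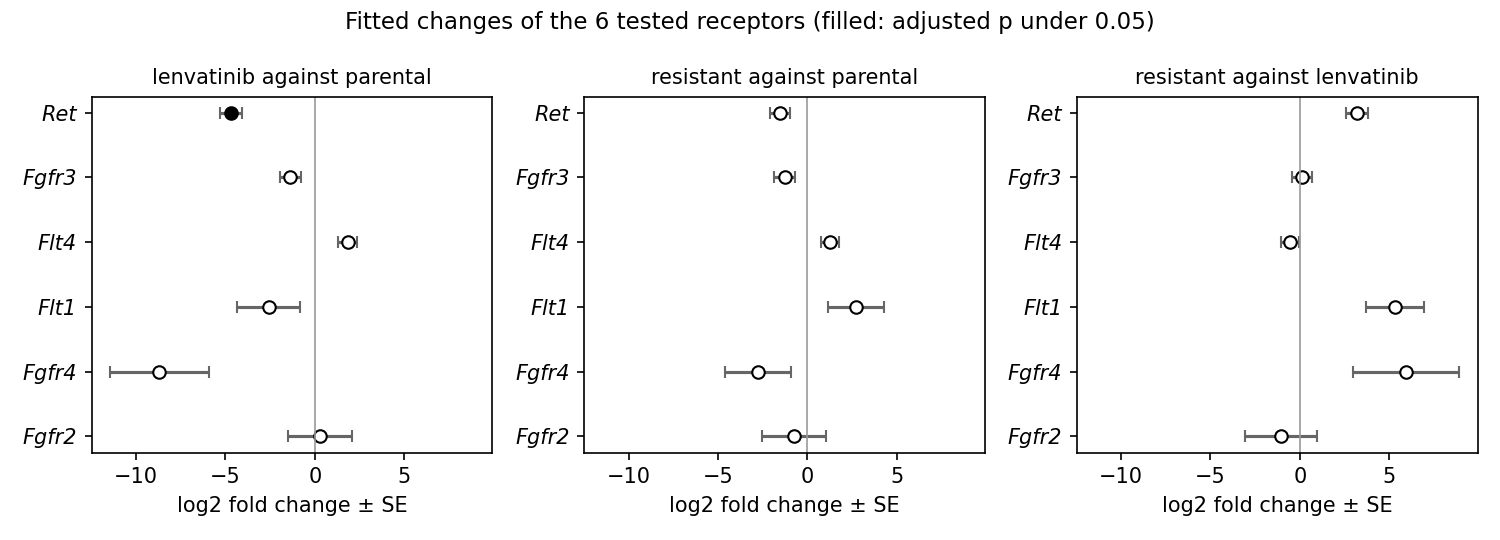
Fitted log2 fold changes with SE of the 6 receptors that passed the filter, in the 3 comparisons, with a positive value meaning higher in the group named first. The filled symbol, Ret in lenvatinib against parental libraries, is the only one with an adjusted p under 0.05, and the fitted values of Fgfr4, with 0 counts in both lenvatinib libraries, depend on the prior count.

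Set beside the other receptor tyrosine kinases, lenvatinib targets held a small part of the receptor transcripts. Counted over 58 such genes, the 10 targets took 0.332% and 0.330% of the receptor counts in the resistant libraries and 0.278% and 0.289% in the lenvatinib libraries. The 4 parental libraries had 5.47%, 0.336%, 1.05% and 0.470%. The widest exact 95% binomial interval among the 8 was 5.34% to 5.60%, in SNU-6621. The highest share was thus in SNU-6621, and the resistant and lenvatinib libraries were below the parental library of their line, with no test across these values. Of the 48 other receptors, 18 reached 10 CPM in all 4 parental lines and 10 had 0 counts in all 8 libraries.

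Levels between genes were compared as CPM per kilobase of coding length, averaged over the 4 parental lines. The ephrin receptor Epha2 was highest at 152 ± 12.4, followed by the collagen receptor Ddr1 at 70.2 ± 6.49 and the ERBB family member Erbb3 at 70.1 ± 16.2 (SD, n = 4 lines). The targets began at rank 21 of 58. On the same scale Fgfr2 had 3.30 ± 6.44, Ret 2.81 ± 1.36, Flt1 2.52 ± 4.95 and Fgfr3 2.42 ± 1.60. These means were close, but the order of the genes differed between lines. In SNU-6621 Fgfr2 had 13.0 and Flt1 9.95, against 3.90 for Ret and 3.93 for Fgfr3. In SNU-6622, SNU-6624 and SNU-6625 Ret had 1.26, 4.005 and 2.09, and Fgfr3 0.959, 3.68 and 1.13. Fgfr2 had at most 0.138 and Flt1 at most 0.0513 in these lines. Without SNU-6621, Ret was the highest target at rank 20, and Fgfr2, Flt1 and Fgfr1 were at ranks 32, 35 and 37. In the lenvatinib libraries Ret was at ranks 25 and 27, and Fgfr3 and Flt4 stood above it in both.

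**Figure D4:**
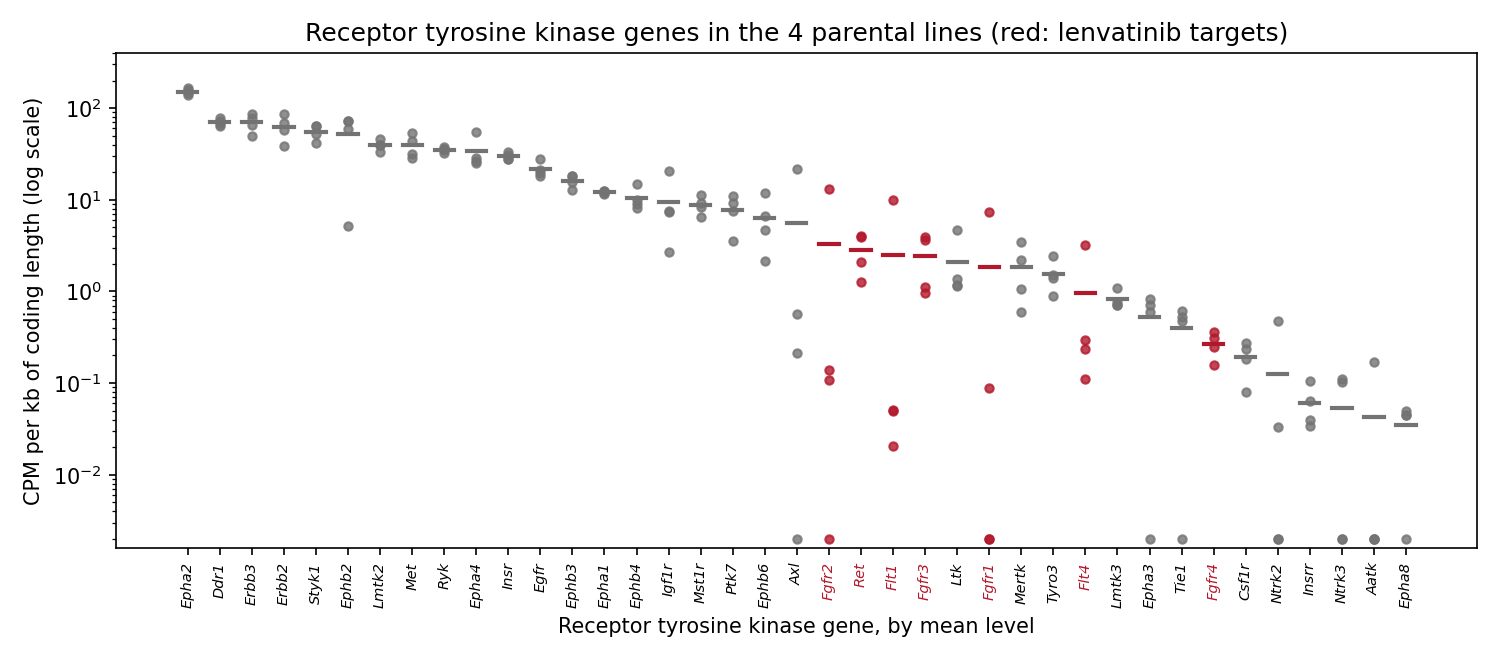
CPM per kilobase of coding length (log scale) of the receptor tyrosine kinase genes with a mean above 0.02, in the 4 parental lines (points) with their mean (bar), ordered by mean. Red marks lenvatinib targets, all to the right of 20 other receptors; points at the lower edge, 0.002, are counts of 0.

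The ligands, co-receptors and signalling genes that work with these receptors were counted in lists chosen with earlier results of these data known. In lenvatinib against parental libraries, 0 of 29 other receptor kinases tested were called up and 2 were called down, against 1.7% up and 4.08% down among all genes tested. The median log2 fold change of the list was -0.74, against -0.01 over all genes. These were Ephb6 (-2.20, SE 0.19, edgeR adjusted p = 0.0322) and Ephb2 (-1.26, SE 0.21, adjusted p = 0.0472). Of 18 ligand genes tested, 0 rose and 2 fell (median -0.39): the PDGF receptor ligand gene Pdgfc (-3.57, SE 0.37, edgeR adjusted p = 0.0356), with 43 and 88 counts in lenvatinib and 681 and 706 in parental libraries, and the FGF gene Fgf1 (-1.48, SE 0.25, adjusted p = 0.04998). None of 6 co-receptor genes was called (median -0.47), the smallest p-values being those of Gfra4 (-1.17, SE 0.37) and Sdc1 (-0.75, SE 0.24). Of these 6, 3 had an unadjusted p under 0.05 and DESeq2 called 3, against 31.8% and 21.5% of all genes. For the 29 other receptor kinases these numbers were 11 and 8, and for the 18 ligands 6 and 6.

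Downstream of the receptors, 1 of 28 adaptor and RAS-ERK genes was called in the same comparison, the ubiquitin ligase gene Cblc (-0.95, SE 0.16, edgeR adjusted p = 0.0497), with a median of 0.17 over the list. Of 18 ERK-induced and feedback genes, 1 rose and 1 fell (median 0.17). These were 2 ETS transcription factor genes of the same subfamily with opposite signs. Etv5 rose (1.30, SE 0.19, edgeR adjusted p = 0.0429), with 2448 and 1873 counts in lenvatinib and 1072 and 605 in parental libraries. Etv4 fell (-1.84, SE 0.19, adjusted p = 0.0356), with 701 and 988 against 2733 and 2777 counts. Over all genes tested edgeR called 5.78%. At an unadjusted p under 0.05 there were 9 of the 28 and 6 of the 18 genes, against 31.8% of all genes. DESeq2 called 7 and 5 of them, against 21.5% of all genes.

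In resistant against parental libraries edgeR called no gene of these lists. At an unadjusted p under 0.05 there were 5 of 29 other receptor kinases, 5 of 18 ligands, 1 of 6 co-receptors, 4 of 28 adaptor and RAS-ERK genes and 5 of 18 ERK-induced genes, and DESeq2 called 1, 2, 1, 0 and 5 genes in the same order of lists. Over all genes these shares were 15.9% and 6.48%. The list medians were 0.01 for other receptor kinases, -0.42 for ligands, 0.36 for co-receptors, 0.13 for adaptors and RAS-ERK genes and 0.42 for ERK-induced genes, against -0.01 over all genes. The smallest unadjusted p-values belonged to Met and Epha4 among receptors (0.67, SE 0.22, and 1.04, SE 0.35), Vegfa and Gdf15 among ligands (-0.79, SE 0.19, and 0.93, SE 0.27), Gfra4 and Sdc4 among co-receptors (-1.99, SE 0.38, and 1.08, SE 0.46), Hras and Sos1 among signalling genes (0.60, SE 0.14, and -0.49, SE 0.15) and Dusp5 and Fosl1 among ERK-induced genes (2.16, SE 0.47, and 2.94, SE 0.65). These are log2 fold changes with edgeR adjusted p of 0.247 to 0.340. Gfra4, the only GFR-alpha gene above 6 counts in any library, thus had a negative value beside Ret, and neither was called.

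In resistant against lenvatinib libraries, 3 of 29 other receptor kinases were called up and 0 down (median 0.80, and 0.76 with genes at 0 in 1 group set to their bound, against 0.02 over all genes), where 4.14% of all genes were called up and 2.08% down. Ephb6 rose by 1.83 (SE 0.19, edgeR adjusted p = 0.0313), Ephb2 by 1.58 (SE 0.21, adjusted p = 0.0380) and Csf1r by 4.02 (SE 0.64, adjusted p = 0.0449) on the log2 scale, the last with 36 and 73 against 3 and 4 counts. Of 18 ligand genes, Pdgfc rose (3.33, SE 0.36, adjusted p = 0.0316) and Vegfa fell (-1.22, SE 0.20, adjusted p = 0.0451), with a median of 0.56. Vegfa, the ligand of Flt1 and Kdr, had 344 and 253 CPM in resistant and 806 and 744 CPM in lenvatinib libraries. Of 28 adaptor and RAS-ERK genes, Cblc rose (1.19, SE 0.16) and the RAS exchange factor gene Sos1 fell (-1.12, SE 0.15), with a median of 0.13, and of 18 ERK-induced genes Etv4 rose (1.53, SE 0.19), with a median of 0.26. These 3 had edgeR adjusted p of 0.0384, 0.0380 and 0.0363. None of 6 co-receptor genes was called (median 0.67), the smallest p-values being those of Nrp1 (1.91, SE 0.47) and Fgfrl1 (-0.82, SE 0.22), while 3 had an unadjusted p under 0.05 and DESeq2 called 3, against 30.4% and 20.9% of all genes. These numbers were 16 and 13 for the 29 other receptor kinases and 4 and 3 for the 18 ligands. They were 11 and 9 for the 28 adaptor and RAS-ERK genes, and 6 and 4 for the 18 ERK-induced genes. Both comparisons with lenvatinib use the same lenvatinib libraries, and both with parental the same parental libraries, so their values are not independent.

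Genes with the most similar pattern were ranked, for each receptor with at least 5 CPM in 1 or more libraries, by Pearson correlation of log2(scaled CPM + 1) over the 8 libraries. These values are descriptions: the points share lines, and 1 library, SNU-6621, sets most of them. Nearest to Flt1 were Sorcs2 (r = 0.998), Aif1l (0.995), Spaca7 (0.995), Ddah1 (0.994) and the scaffold gene Akap12 (0.990). Like Flt1, all 5 were highest in parental SNU-6621 and next highest in resistant SNU-6625. Akap12 had 0.237 and 14.2 CPM in resistant SNU-6624 and SNU-6625, 0.247 and 0.386 CPM in the lenvatinib libraries, and 164, 0.718, 0.712 and 0.0816 CPM in the 4 parental libraries. Nearest to Fgfr1 were Galnt18, Slitrk5, Atp2b2, Sncg (r = 0.999 each) and Frem2 (0.998), and nearest to Fgfr2 were Fxyd4 (0.999), the ecto-nucleotidase gene Nt5e, Gsdmc3, Cys1 and Efcab1 (0.998 each). All 10 had at least 5 CPM in parental SNU-6621 and under 0.5 CPM in the other libraries. This pattern, and that of the 5 genes nearest to Flt1, follows from the ranking itself. It took only genes with at least 5 CPM in 1 or more libraries.

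Flt4 was most like Mosmo (r = 0.982), the sialidase gene Neu3 (0.975), Dpy19l1 (0.971), Tex9 (0.970) and Stxbp4 (0.970), and Fgfr3 most like the hemidesmosome collagen gene Col17a1 (0.927), Ppie (0.918), Katnal2 (0.906), Ccdc28b (0.897) and Fundc1 (0.882). Ret was most like the transcription factor gene Sox13 (r = 0.974), the mitochondrially encoded genes COX3 (0.967) and ND1 (0.964), Cnot1 (0.957) and Hnrnpul1 (0.953). Sox13 had 73.2 and 67.9 CPM in resistant SNU-6624 and SNU-6625, 53.1 and 42.4 CPM in the lenvatinib libraries and 148, 91.5, 115 and 93.1 CPM in the 4 parental libraries, a narrower range than Ret over the same order of groups.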

How the data were processed

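Gene expression was measured in 8 mouse organoid libraries made with a stranded poly(A) kit, per the labels' protocols. The authors deposited raw read counts per gene. The submitters' processing notes name HISAT2 2.1.0, StringTie 2.1.3b, Bowtie2 2.3.4.1, Trimmomatic 0.38 and FastQC 0.11.7, and build mm10. How reads were counted, and with which strand setting, is not given in the sources used here.

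Groups came from the cell type label and lines from the line name. Counts of the 6 libraries of SNU-6624 and SNU-6625 were tested in edgeR 4.0.16 (R 4.3.3) by its quasi-likelihood F test on group with line as a second term, TMM scaling and the edgeR filter on low counts (17038 genes kept), and adjusted by Benjamini-Hochberg over all of them. SE is the log2 fold change over the square root of F. The spread had 2 residual and 2.53 prior degrees of freedom. Line was a term because the same lines entered each group, and line deviations correlated across genes at 0.504 (lenvatinib and parental), 0.288 (resistant and parental) and 0.290 (resistant and lenvatinib). The labels name no separate cultures or animals, so a p-value here reflects only how far these libraries spread. Steps were tested on simulated data. Counting intervals are exact (Poisson, or binomial for ratios and shares) and cover counting error only. Alternatives were DESeq2 1.42.0, other scaling, filters and libraries, and each library left out.

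All 10 receptors are named. Genes of other lists are those called, up to 4 per list and comparison, or the 2 smallest p-values where none was called. The partner genes Kitl, Klb, Gdnf, Artn, Nrtn, Pspn and Gfra1 and single marker genes were named after their values were seen. The receptors and lists were chosen with earlier results of these data known. No table of protein lengths was used; coding lengths came from the longest coding transcript in GENCODE M21, a change made after the design was set. Gene positions are from RefSeq GRCm38.p6, by gene identifier.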

Additional observations from a re-analysis of the deposited data

Results flagged for a closer look

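In the parental group of 4 lines, SNU-6621 stood apart from the other 3 for Flt1 (39.8 CPM), Flt4 (13.2 CPM), Fgfr1 (18.45 CPM) and Fgfr2 (32.7 CPM), with gaps to the next line of 0.997, 0.940, 0.988 and 0.989 of the whole range, past Dixon's 95% critical value for 4 samples. That value flags about 1 group in 20 by chance only for normally distributed values, which is not shown for these CPM. The share of all genes it flags is not given here. Fgfr2 lay in opposite directions in the 2 lines with lenvatinib. The ratio of lenvatinib to parental was 0.203 in SNU-6624 (4 against 21 counts). In SNU-6625 (6 against 0 counts) the lenvatinib level was 1.80 times the floor of its parental library, and the ratio had a lower 95% limit of 1.06. The difference between the lines was not tested, and the counts are close to the floor.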

How the results depend on the processing

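For lenvatinib against parental, 985 genes and 1 receptor were called. The 4 libraries of the 2 groups alone gave 7942 genes and 4 receptors, DESeq2 3669 and 2, and no filter on low counts 174 and 0. With each library left out in turn, calls ran from 0 to 7798 genes and 0 to 3 receptors: 0 without any of the 4 lenvatinib and parental libraries, and 7798 and 7769 without the resistant library of SNU-6624 or SNU-6625.

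For resistant against parental, DESeq2 called 1104 genes, against 0. Leaving out each library gave 0 to 5819 genes and 0 to 2 receptors: 5819 without the resistant library of SNU-6624 and 580 without that of SNU-6625.

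For resistant against lenvatinib, 1061 genes and 0 receptors were called. The 4 libraries alone gave 234 genes, DESeq2 3569 genes and 2 receptors, no filter 324 genes, and at least 1 CPM in 2 or more libraries 1 receptor. Leaving out each library gave 0 to 6286 genes (0 without lenvatinib SNU-6624 or SNU-6625, 90 and 118 without parental SNU-6624 and SNU-6625, 6286 and 5867 without resistant SNU-6624 and SNU-6625) and 0 to 2 receptors. The cause of these changes was not tested. Where a group is left with 1 library, it is assumed to vary like the others.

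Without the replicate block, that is without line as a term, 1053 genes were called for lenvatinib against parental, 0 for resistant against parental and 1119 for resistant against lenvatinib. No receptor gained or lost a call.

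With library size as the only scaling, 43.4% of lenvatinib against parental calls were rises, against 29.3%, and 47.3% of resistant against lenvatinib calls, against 66.5%, and the median of all genes in resistant against lenvatinib moved to -0.14, against 0.02.

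Signs turned for receptors that were not called. Fgfr2 in lenvatinib against parental (0.30) had -1.05 without the replicate block and -0.17 with all 8 libraries, and ran from -2.31 to 5.14 over the left-out libraries. In resistant against parental (-0.75) it ran from -4.88 to 4.14. In resistant against lenvatinib (-1.05) it had 0.19 without the block and ran from -5.91 to 1.54. In the same comparison Fgfr3 (0.11) had -0.09 with library size alone and ran from -0.48 to 0.58, Flt4 from -1.14 to 0.15 and Fgfr4 from -0.22 to 7.56.

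The parental level depended on SNU-6621: without it the mean was 0.162 CPM for Flt1, 0.877 for Flt4, 0.0740 for Fgfr1 and 0.207 for Fgfr2. The number of receptors above the floor in every library was 3 with a floor of 3 or 10 counts, and the highest receptor stayed at rank 20 to 22 of 58 with other lengths or without SNU-6621.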
